A study of Rattus norvegicus with 6 samples.

Results

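The genes described here are those that make, package, take up, break down and receive the inhibitory transmitters GABA and glycine in rat retina. All 31 genes of the list were found by symbol in a gene table of 26406 rows, each as 1 row with the same capitals, out of 19623 symbols in all. They comprise 16 subunits of ionotropic GABA receptors, 4 glycine receptor subunits, 2 GABA-B receptor subunits, 2 synthetic enzymes, 1 degrading enzyme, 5 transporters and 1 scaffold gene. Other subunits and transporters of these families were not analysed here.

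The series holds 6 retinal samples in 3 groups of 2, all taken at postnatal day 60. The first group is Royal College of Surgeons (RCS) rats that had human neural progenitor cells injected under the retina at postnatal day 21. The second is RCS rats with a sham operation and the third is Long Evans rats with a sham operation, both given the cell medium alone at the same age. RCS rats carry an inherited defect of photoreceptor upkeep and lose their photoreceptors, while Long Evans is the wild-type strain of the study. The neural retina alone was taken, and of it the region with the graft or its counterpart in sham eyes. The labels do not say whether each sample is 1 animal.

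The deposited table gives a single FPKM per gene and names no sample or group. FPKM scales the number of sequenced fragments to the kilobases of the transcript and to the mapped total of the run, so it is a level per length. Each level below therefore comes from 1 library or 1 pool, and no group comparison, replicate spread or p-value could be given. The table also gives a lower and an upper bound for each level. Read as 2 standard errors of counting, these bounds imply the number of fragments behind a gene, and they imply 6124332 fragments over all rows. Intervals below cover counting error only and say nothing of the spread between animals. As a check of the tissue, the highest marker of each retinal class was Gnat1 for rods at 6316 FPKM, Glul for Müller glia at 617 FPKM, Calb2 for amacrine cells at 181 FPKM, Sncg for ganglion cells at 144 FPKM, Pcp2 for bipolar cells at 113 FPKM and Calb1 for horizontal cells at 23.7 FPKM. Other markers of the inner retinal classes were lower, down to 0.153 FPKM for Onecut2 and 1.19 FPKM for Lhx1 of horizontal cells, 2.34 FPKM for Th of amacrine cells and 3.12 FPKM for Pou4f1 of ganglion cells. The median of the 5 horizontal cell markers was 1.83 FPKM, and that of the 6 amacrine cell markers was 13.4 FPKM. In such bulk RNA, fewer cells of a type and less RNA per cell cannot be told apart.

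In the retina, inhibition is carried mainly by amacrine cells, which release either GABA or glycine onto bipolar, ganglion and other amacrine cells, and by horizontal cells in the outer retina. GABA opens chloride channels built from several subunits, and in bipolar cells also from rho subunits, whose currents are long-lasting and were once called GABA-C responses. GABA-B receptors act more slowly through G proteins. Glycine opens its own chloride channels, and transporters in the plasma membrane end both signals.

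The levels were uneven among the receptor subunits and, apart from Slc6a5, more even among the genes of synthesis and transport. The rho subunit genes Gabrr1 and Gabrr2 stood above the other ionotropic GABA receptor subunits. The glycine transporter Slc6a9 and the synthetic enzyme Gad1 were the 2 highest genes of all. In contrast, Slc6a5, Gabre, Gabrq, Gabra6 and Gabrp were at or near 0. Of the 31 genes, 25 (80.6%) reached 1 FPKM, where 61.0% of all symbols did. Their median was 7.28 FPKM, beside 3.17 FPKM over all symbols. Another 4 genes lay above 0 and below 1 FPKM, and 2 were listed at 0. A minimum of 0.5 FPKM was met by 26 of the genes (65.8% of all symbols) and one of 5 FPKM by 17 (42.8%). For 24 genes the lower bound itself was at 1 FPKM or more (57.0% of all symbols). Together the genes summed to 381 FPKM, or 0.111% of the summed FPKM of the table.

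**Figure D1:**
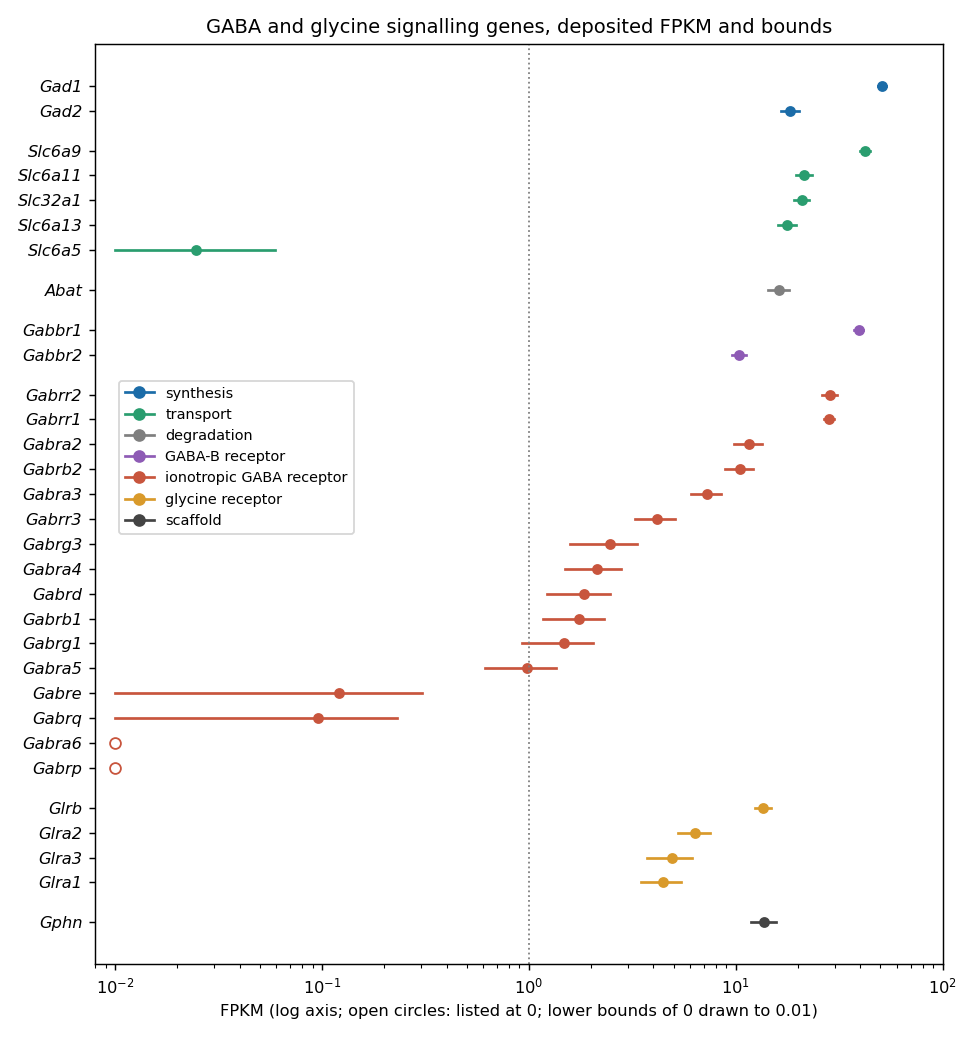
Deposited FPKM of the 31 genes on a log axis, grouped by role, with the deposited lower and upper bounds as lines; open circles are genes listed at 0 and the dotted line marks 1 FPKM. Gad1 stands at the top with 50.8 FPKM, Gabrr2 and Gabrr1 lie together at 28.4 and 28.1 FPKM, and the ionotropic receptor subunits spread from 0 to 28.4 FPKM.

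The upstream sequences of 4 receptor subunit genes are shown because they set the highest neighbouring pair, Gabrr1 and Gabrr2, beside a low pair, Gabrg3 and Gabra5. Each is the 250 bases before the gene start in RefSeq on build GRCr8, 5′ to 3′ on the strand of the gene, with every CG dinucleotide in capitals.
Gabrr1, chr5:52320225-52320474, plus strand: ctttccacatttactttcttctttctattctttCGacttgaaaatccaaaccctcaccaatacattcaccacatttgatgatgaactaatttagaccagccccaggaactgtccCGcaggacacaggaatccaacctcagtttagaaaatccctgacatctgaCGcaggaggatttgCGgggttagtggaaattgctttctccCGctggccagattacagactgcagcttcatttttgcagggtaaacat
Gabrr2, chr5:52248228-52248477, plus strand: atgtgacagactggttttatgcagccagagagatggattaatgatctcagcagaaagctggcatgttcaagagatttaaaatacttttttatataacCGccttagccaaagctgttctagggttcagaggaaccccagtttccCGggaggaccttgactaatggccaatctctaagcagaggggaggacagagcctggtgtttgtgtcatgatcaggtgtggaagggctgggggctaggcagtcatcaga
Gabrg3, chr1:117382458-117382707, minus strand: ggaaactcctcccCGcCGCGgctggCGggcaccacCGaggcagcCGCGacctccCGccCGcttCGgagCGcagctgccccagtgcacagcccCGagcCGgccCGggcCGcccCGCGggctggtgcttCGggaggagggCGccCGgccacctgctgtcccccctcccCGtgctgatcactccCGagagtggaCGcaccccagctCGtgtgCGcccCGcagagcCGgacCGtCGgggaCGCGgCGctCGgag
Gabra5, chr1:117516607-117516856, minus strand: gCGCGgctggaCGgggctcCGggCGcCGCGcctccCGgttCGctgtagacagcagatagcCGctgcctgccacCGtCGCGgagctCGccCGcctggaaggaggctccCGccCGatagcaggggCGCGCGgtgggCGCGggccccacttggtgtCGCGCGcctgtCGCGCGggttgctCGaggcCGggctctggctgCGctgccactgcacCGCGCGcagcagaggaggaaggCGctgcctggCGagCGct
The windows of Gabrr1 and Gabrr2 held 5 and 2 CG dinucleotides, and those of Gabrg3 and Gabra5 held 33 and 37. Both pairs were picked with their values known, and other genes went the other way. Among them, Gad1 at 50.8 FPKM had 23 CG, while Gabrb1 at 1.74 FPKM and Gabrg1 at 1.48 FPKM had 8 and 6.

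Gad1, which encodes the form of glutamate decarboxylase that makes GABA throughout the cell body and processes, was the highest of the 31 genes at 50.8 FPKM. The deposited bounds were 48.5 and 53.2 FPKM, and 1872 fragments are implied. Its row (ENSRNOG00000000007) lies on chromosome 3 of build rn5 from 63479962 to 63519877. Gad2, the form attached to synaptic vesicles, was at 18.4 FPKM (16.5 to 20.2, 399 fragments). Gad1 was 2.77 times Gad2 (95% counting interval 2.48 to 3.08), and by fragments, which are not divided by length, 4.69 times. Both enzymes together stood at 69.2 FPKM, 4.28 times (3.79 to 4.83) the level of Abat. Abat, the GABA transaminase that breaks GABA down, stood at 16.2 FPKM (14.3 to 18.02).

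Among the transporters, Slc6a9 led. Slc6a9 encodes GlyT1, the plasma membrane glycine transporter that marks glycinergic amacrine cells in the retina, and it was at 42.2 FPKM (40.01 to 44.3, 1546 fragments). Its row (ENSRNOG00000019484) lies on chromosome 5 of rn5 from 140458722 to 140492746. Slc6a5 encodes GlyT2, the transporter of glycinergic neurons of spinal cord and brainstem, and it was at 0.0247 FPKM (0 to 0.0596). That value rests on an implied 2 fragments. Slc6a9 was 1708 times Slc6a5, with an exact counting interval from 472 to 14118, so the size of the gap is known only loosely.

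The GABA transporters were closer to each other. Slc6a11, which encodes a GABA transporter also found in astrocytes and known in the rat as GAT-3, was at 21.4 FPKM (19.5 to 23.4). Slc6a13, which encodes the related GAT-2, was at 17.7 FPKM (15.9 to 19.5). The ratio of Slc6a11 to Slc6a13 was 1.21 (1.06 to 1.38). Slc32a1, the vesicular transporter that fills synaptic vesicles with either GABA or glycine, was at 20.8 FPKM (19.05 to 22.6). It is the most compact of these genes, with a span of 4.67 kb on chromosome 3 of rn5, from 160500059 to 160504727. Slc32a1, Slc6a11 and Gad2 were neighbours in level whose deposited intervals overlapped.

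Of the receptor genes, the GABA-B subunits come first here because they form 1 receptor. Gabbr1, which carries the GABA binding site, was at 39.3 FPKM (37.3 to 41.4, 1464 fragments). Gabbr2, which brings the receptor to the surface and couples it to G proteins, was at 10.4 FPKM (9.57 to 11.2, 673 fragments). The working receptor pairs both subunits, and Gabbr1 was 3.79 times Gabbr2 (3.46 to 4.16). By fragments the ratio was 2.18, because the deposited values put 64.9 fragments behind each FPKM of Gabbr2 and 37.2 behind each FPKM of Gabbr1.

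Of the 16 ionotropic GABA receptor subunits, 11 reached 1 FPKM, a share (68.8%) near the 61.0% of all symbols, and their median over all 16 was 1.99 FPKM, below the 3.17 FPKM of all symbols. Of the 15 genes with other roles, 14 did, with a median of 16.2 FPKM. Most of the summed level of the ionotropic subunits analysed here came from the rho class. Gabrr1 was at 28.1 FPKM (26.6 to 29.7) and Gabrr2 at 28.4 FPKM (26.01 to 30.9). Their ratio, Gabrr1 to Gabrr2, was 0.989 (0.895 to 1.09), so they were not apart per length. By fragments Gabrr1 was 2.38 times Gabrr2, with 1294 against 545 implied fragments. Gabrr3, the third rho subunit, was at 4.16 FPKM (3.26 to 5.07), and Gabrr2 exceeded it 6.83 times (5.44 to 8.59). Gabrr1 and Gabrr2 together held 56.1% of the summed FPKM of the 16 subunits and 70.7% of their fragments. Their sum was 1.41 times (1.29 to 1.54) that of the 13 subunits outside the rho class, which came to 40.2 FPKM.

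Among the alpha subunits, which with the beta subunits form the GABA binding site of the common receptors, the order was Gabra2, Gabra3, Gabra4, Gabra5 and Gabra6. Gabra2 was at 11.5 FPKM (9.77 to 13.3) and was 1.59 times Gabra3 (1.27 to 1.98). Gabra3 was at 7.28 FPKM (6.06 to 8.51), and 3.40 times Gabra4 (2.42 to 4.78). These steps were larger than counting error, though by fragments Gabra2 was only 1.19 times Gabra3. Gabra4 was at 2.14 FPKM (1.49 to 2.80) and Gabra5, a subunit best known from hippocampus, at 0.981 FPKM (0.617 to 1.35), just under 1 FPKM. Gabra4 was 2.18 times Gabra5 (1.36 to 3.50). Gabra6, a subunit of cerebellar granule cells, was listed at 0.

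The beta subunits differed as well. Gabrb2 was at 10.5 FPKM (8.82 to 12.2) and Gabrb1 at 1.74 FPKM (1.17 to 2.32), a ratio of 6.02 (4.21 to 8.61). Gabrb2 thus lay beside Gabra2 in level, and their deposited intervals overlapped. The gamma subunits, which set the response of a receptor to benzodiazepines, were both low. Gabrg3 was at 2.46 FPKM (1.59 to 3.33) and Gabrg1 at 1.48 FPKM (0.922 to 2.04). Their ratio of 1.66 had an interval from 0.998 to 2.75, so they were not apart beyond counting error. Gabrd, the delta subunit of receptors outside synapses, was at 1.84 FPKM (1.23 to 2.46). The epsilon and theta subunits Gabre and Gabrq were at 0.121 and 0.0952 FPKM with lower bounds of 0. They rest on an implied 1.73 fragments, not a whole number, and 2 fragments. Gabrp, the pi subunit, known from organs outside the brain, was listed at 0.

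All 4 glycine receptor subunits were above 1 FPKM. Glrb, the beta subunit that ties the receptor to its scaffold, was at 13.6 FPKM (12.3 to 14.8, 474 fragments). The alpha subunits bind glycine and lay close together, with Glra2 at 6.36 FPKM (5.25 to 7.47), Glra3 at 4.94 FPKM (3.73 to 6.15) and Glra1 at 4.46 FPKM (3.48 to 5.44). Neither Glra2 against Glra3 (ratio 1.29, interval 0.960 to 1.73) nor Glra3 against Glra1 (1.11, 0.802 to 1.53) was apart beyond counting error. Glra2 against Glra1 was, at 1.43 (1.08 to 1.88). The 3 alpha subunits summed to 15.8 FPKM, 1.16 times Glrb (1.0001 to 1.35), whereas by fragments their sum was 0.594 times Glrb. Gphn, which encodes gephyrin, the scaffold that holds glycine and many GABA receptors at synapses, was at 13.7 FPKM (11.8 to 15.6). Gphn and Glrb were neighbours in level with overlapping intervals.

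Summed by role, transport held 26.8% of the FPKM of the 31 genes (25.9% to 27.7%) and ionotropic GABA receptors 26.5% (25.6% to 27.4%). Synthesis held 18.1% (17.4% to 18.9%), GABA-B receptors 13.04% (12.5% to 13.6%) and glycine receptors 7.70% (7.14% to 8.26%). The 5 transporters and the 16 ionotropic subunits were thus not apart in their sums per length, at 102 and 101 FPKM. By fragments, transport held the larger share, 26.6% against 23.1% for the ionotropic subunits. By subunit class, rho held 15.9% of the FPKM of the 31 genes, alpha 5.76%, beta 3.21%, gamma 1.03% and the delta, epsilon, pi and theta class 0.540%. Glycine uptake held 11.1% and GABA uptake 10.3%. These shares are of the genes analysed here, and would be smaller with more members of a family in the sum.

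**Figure D2:**
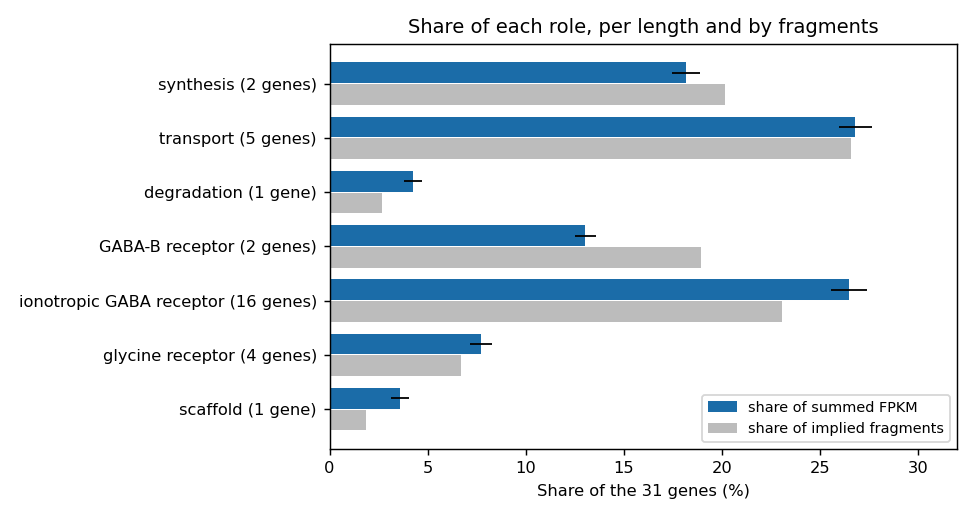
Share of each role among the 31 genes, as summed FPKM (blue, with 95% counting intervals) and as implied fragments that are not divided by transcript length (grey). Transport and ionotropic GABA receptors hold 26.8% and 26.5% of the FPKM, and GABA-B receptors hold 13.04% of the FPKM but 19.0% of the fragments.

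Ordered by level, the genes formed a near-continuous series. In 25 of the 30 pairs of neighbours the deposited intervals overlapped. The 5 gaps lay below Gad1, below Gabbr1, below Gabrr1, below Gabbr2 and below Gabra5. Gad1, at the top, exceeded 95.3% of all symbols, Gabrr1 exceeded 90.04% and Gabra3, the median gene, exceeded 64.4%.

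Many receptor subunit genes lie in clusters, and 13 of the 16 ionotropic GABA receptor genes fell into 5 clusters when members within 1 Mb of each other on a chromosome were joined. Levels within a cluster were alike in 1 case and uneven in others. On chromosome 5 of rn5, Gabrr2 (52888135 to 52924364) and Gabrr1 (52956761 to 52993589) are 32.4 kb apart with no other row between them, and the higher of the pair was 1.01 times the lower. On chromosome 14, the genes stand in the order Gabrb1, Gabra4, Gabra2 and Gabrg1, from 38453155 to 39858765. There, Gabra2 at 11.5 FPKM exceeded its 3 neighbours, which lay between 1.48 and 2.14 FPKM.

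The remaining clusters were uneven to different degrees. Gabrg3 (113167702 to 113438056) and Gabra5 (113844282 to 113955085) on chromosome 1 were both low, 2.50-fold apart. Gabre, Gabra3 and Gabrq span 147946365 to 148595780 of chromosome 1 in rn5, and Gabra3 was 76.5 times Gabrq. Since Gabrq rests on 2 fragments, the exact counting interval of that ratio ran from 20.8 to 638. The RefSeq gene table of assembly GRCr8 lists these 3 genes on chromosome X. It gives the other 28 genes the same chromosome as the deposited table. On chromosome 10, Gabra6 (27691630 to 27706942) was listed at 0, while Gabrb2 (27818094 to 28026899), 111 kb away, was at 10.5 FPKM.

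**Figure D3:**
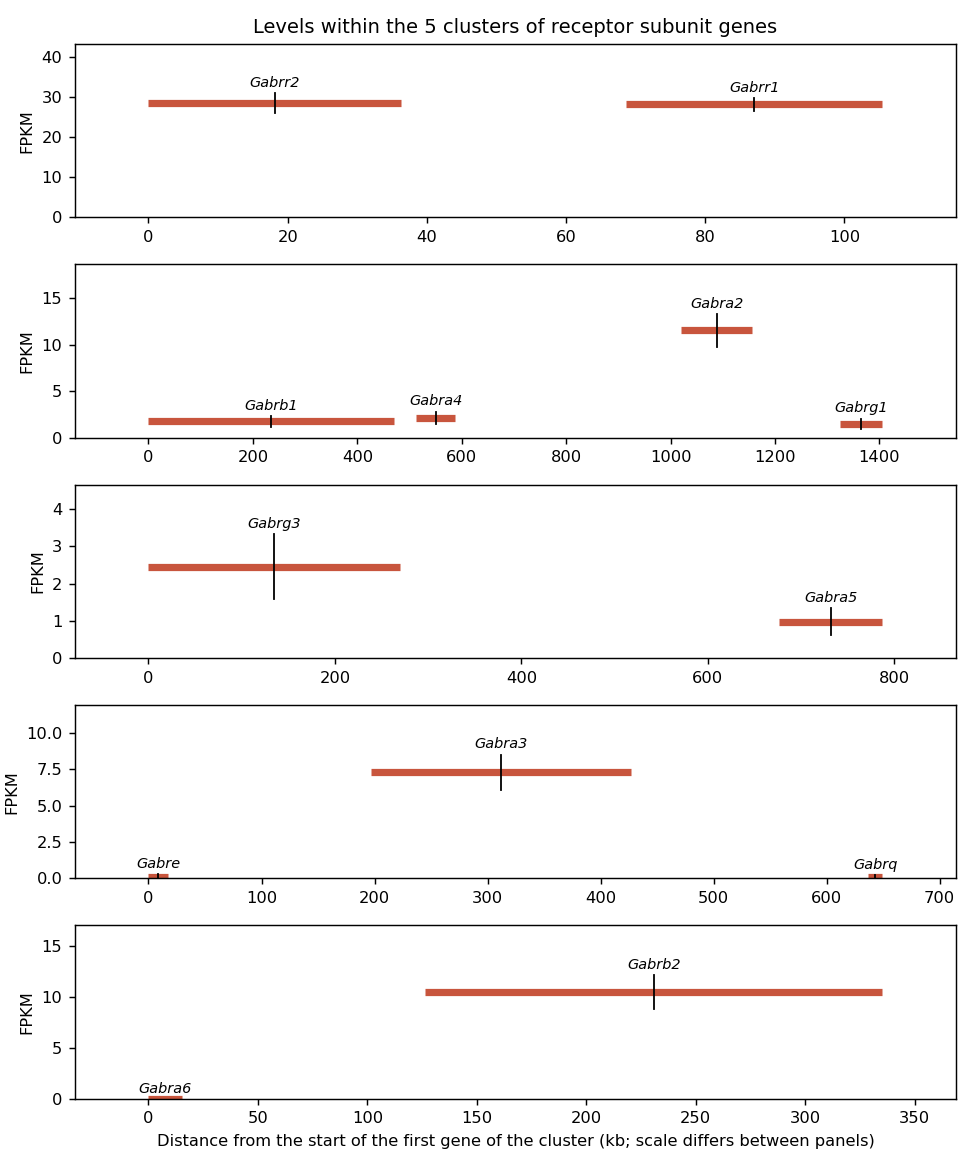
Level in FPKM (height of the red bars, which span each gene; black lines are the deposited bounds) against distance in kb from the start of each of the 5 clusters. Gabrr2 and Gabrr1 stand at 28.4 and 28.1 FPKM in the top panel, while Gabra2 at 11.5 FPKM, Gabra3 at 7.28 FPKM and Gabrb2 at 10.5 FPKM each stand above the other genes of their cluster.

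Upstream windows of 250 bases were available from RefSeq (GRCr8) for 26 of the 31 genes. Gabra2, Gabrp, Glra1, Slc6a13 and Abat had none. Across the genes with a window, the Spearman correlation of CG count with FPKM was 0.0716 (n = 26, genes of 1 table that share a library and its biases). The counts ran from 0 in Gabra3 and Gabra6 to 39 in Gabbr2, with a median of 16.5, beside 8 over 21842 windows of protein-coding genes. At least 15 CG were present in 14 of the 26 windows (53.8%), and in 34.3% of protein-coding windows and 25.8% of all 33469 windows. The cut of 15 was chosen after the values had been seen.

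Of the 14 ionotropic GABA receptor genes with a window, the 6 with at least 15 CG (Gabrg3, Gabra4, Gabrd, Gabra5, Gabre and Gabrq) lay between 0.0952 and 2.46 FPKM, with a median of 1.41 FPKM. The 8 with fewer CG lay between 0 and 28.4 FPKM, with a median of 5.72 FPKM. They were Gabrr1, Gabrr2, Gabrb2 and Gabra3, and the lower Gabrr3 (4.16 FPKM), Gabrb1 (1.74 FPKM), Gabrg1 (1.48 FPKM) and Gabra6 (listed at 0). Of the 12 genes of other roles, 8 had at least 15 CG, among them Gad1 with 23, Gabbr1 with 26 and Slc32a1 with 34. Slc6a9, the second highest gene, had 8. Gabra2 (11.5 FPKM), the highest ionotropic subunit outside the rho class, and Gabrp (listed at 0) had no window and are in neither set. This split by CG count is a description of 1 table and was not tested.

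The letters GGGCGG, searched on both strands, were found in 16 of the 26 windows (61.5%), against 38.9% of protein-coding windows and 30.5% of all windows. They overlap the CG count, since each match holds a CG. The windows without GGGCGG were those of Gabrr1, Gabrr2, Gabrr3, Gad2, Gabrb2, Gabra3, Gabrb1, Gabrg1, Slc6a5 and Gabra6. The letters TATAAA, on either strand, were in 4 windows (15.4%), those of Gad1, Gabrr2, Gabra3 and Glra2, against 12.1% of protein-coding and 12.9% of all windows. A match or its lack in these windows says nothing of binding.

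**Figure D4:**
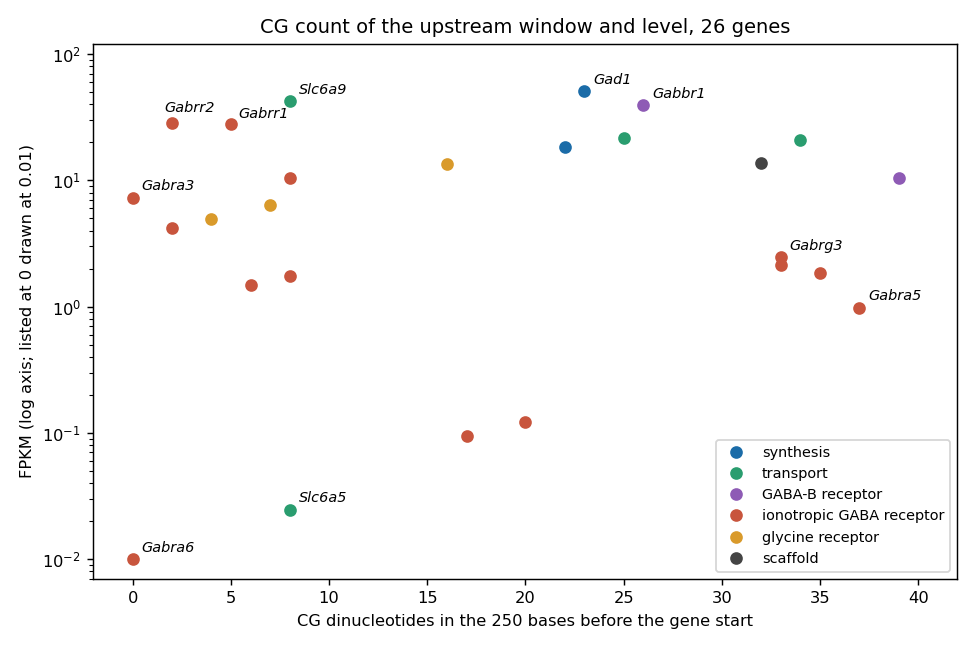
CG dinucleotides in the 250 bases before the gene start (RefSeq, GRCr8) against FPKM on a log axis for the 26 genes with a window, coloured by role. Gabrr1 and Gabrr2 sit at upper left with 5 and 2 CG and 28.1 and 28.4 FPKM, while Gabrg3 and Gabra5 sit at right with 33 and 37 CG and 2.46 and 0.981 FPKM.

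Other genes of the pathway were read from 5 lists, and 51 of the 55 genes matched reached 1 FPKM, against 61.0% of all symbols. Their median was 12.0 FPKM. In the list of inhibitory synapse scaffold and receptor trafficking genes, 14 of 15 were at 1 FPKM or more and the median was 15.6 FPKM. Its highest were Gabarapl1 at 111 FPKM (106 to 116) and Gabarapl2 at 94.6 FPKM, relatives of the GABA receptor-associated protein that also serve in autophagy.

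Of the chloride transport genes, 11 of 12 reached 1 FPKM. Slc12a5, which encodes the neuronal chloride exporter KCC2 that makes GABA and glycine inhibitory, was highest at 88.6 FPKM (85.4 to 91.7), and Clcn3, a chloride and proton exchanger of endosomes, was next at 33.0 FPKM. Slc12a2, the chloride importer NKCC1, picked with its value known, had 6.75 FPKM (6.16 to 7.35). The exporter was 13.1 times the importer (11.95 to 14.4) per length. Their implied fragments, which are not divided by length, were closer, at 3129 and 515.

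Partners of the GABA-B receptor were all above 1 FPKM (9 of 9 matched), and had a median of 8.48 FPKM. They were led by the G protein genes Gnao1 at 69.6 FPKM and Gnai2 at 48.6 FPKM. Kctd12 of this list was not analysed here. For GABA precursor supply and breakdown, 8 of 9 genes were at 1 FPKM or more and the median was 17.8 FPKM. Slc38a3, a glutamine transporter of Müller glia, was at 120 FPKM (115.5 to 124). For glycine and serine metabolism, 9 of 10 were at 1 FPKM or more and the median was 11.6 FPKM. The highest were Dld, a subunit that the glycine cleavage system shares with other enzymes, at 38.6 FPKM and Psat1, of serine synthesis, at 19.4 FPKM.

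**Figure D5:**
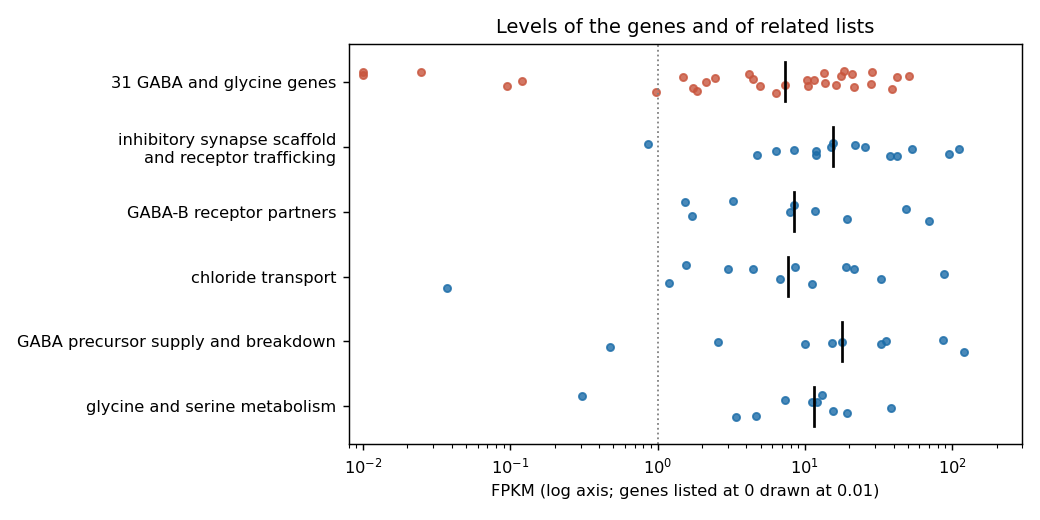
FPKM on a log axis of the 31 GABA and glycine genes (red) and of the measured genes in 5 related lists (blue), with the median as a black line, small vertical offsets for legibility, and 1 FPKM dotted. The medians run from 7.28 FPKM for the 31 genes to 17.8 FPKM for GABA precursor supply and breakdown, and Slc12a5 stands at 88.6 FPKM among the chloride transport genes.

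The depth behind single levels differed widely. Each FPKM stood for between 13.03 and 81.05 implied fragments, with a median of 20.7. The 31 genes together rested on 11274 fragments, of which Gad1 had 1872, Slc6a9 1546, Gabbr1 1464 and Gabrr1 1294. Of the 16 genes with up to 200 implied fragments, 14 had a number within 0.02 of a whole one. The counting reading of the bounds rests on such genes and is an assumption for the deeper ones. Rows of other genes overlap 7 of the 31 genes in rn5, and 3 of these 9 rows were above 0. One of them, without a symbol, lies within Gabra5 and was at 1.01 FPKM, beside 0.981 FPKM for Gabra5. Whether the counting used strand is not given in the sources used here, and overlap of exons was not checked. Whether such a pair shared reads is therefore not known.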

How the data were processed

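RNA of rat neural retina was sequenced in 6 samples; libraries were made with an Ion Total RNA-seq kit, per the labels' protocols. The authors deposited 1 gene table in the layout of Cufflinks, with an FPKM, a lower and an upper bound per gene, per the file headers. Cufflinks 2.0.8 and build rn5 are named in the submitters' processing notes. For the aligner, annotation release, confidence level and pooling, the answer is not given in the sources used here. No column names a sample, so the comparisons of RCS with grafts, RCS sham and Long Evans sham set down earlier, with limma, were not run.

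From the deposited FPKM, rows were matched by symbol ignoring case and summed where a symbol repeats, in Python 3.11.15 (scipy 1.17.1, pandas 2.3.3, numpy 2.4.6). The distance from an FPKM to its upper bound was read as 2 standard errors, and implied fragments are the squared ratio of FPKM to its standard error. Ratios have 95% intervals on a log scale, or exact binomial ones below 10 fragments, as for Slc6a5 and Gabrq. The formulas for implied fragments and log-scale intervals were run on simulated counts. Those counts were drawn under the same counting assumption, so that run cannot show whether the deposited bounds follow it. In all, 20 ratios were computed. An exact 0 is given as listed at 0. Upstream windows and chromosomes come from RefSeq (GRCr8). The protein comparison planned was not made, as no protein table was used here.

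The members, lists and roles were chosen with earlier results of these data known. All 31 members are named; from each pathway list the text names the 2 highest genes, except an item that is not reported here. For each cell class it names the highest marker, and the low markers Onecut2, Lhx1, Th and Pou4f1 were chosen after their values were seen. Alternatives were other minimum levels, the highest row per symbol, rows with status OK, exact symbols and fragments in place of FPKM.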

Additional observations from a re-analysis of the deposited data

How the results depend on the processing

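The count of 25 genes at 1 FPKM or more stayed within 1.5 times at other minimum levels, from 17 to 26. The setting that used the lower bound (24 genes) was chosen after seeing the data. Taking the highest row per symbol, rows with status OK or exact symbols left each recomputed count, median, share and ratio as it was, because each of the 31 genes has 1 row with that status and spelling, so these settings say nothing about stability. With implied fragments in place of FPKM, 16 of 27 shares and ratios moved by more than counting error. The summed alpha to beta ratio of the glycine receptor, 1.16 by FPKM, was 0.594 by fragments, the 1 reversal among the ratios that were apart from 1. The shares became 19.0% for GABA-B receptors, 2.69% for degradation, 6.70% for glycine receptors, 23.1% for ionotropic GABA receptors, 1.86% for the scaffold and 20.1% for synthesis. The ratios became 4.69 for Gad1 to Gad2, 2.18 for Gabbr1 to Gabbr2, 2.38 for Gabrr1 to Gabrr2, 15.2 for Gabrr1 to Gabrr3, 1.19 for Gabra2 to Gabra3, 5.83 for Gabra2 to Gabra5, 1.96 for Glra2 to Glra3, 7.49 for both Gad genes to Abat and 2.71 for Gabrr1 and Gabrr2 to the 13 subunits outside the rho class. Fragments are not divided by length, which is what this setting changes. No paired analysis was possible because the 1 FPKM column belongs to no named sample, and for the same reason leaving out each replicate was not run. Depth limits the lowest genes, where an implied 2 fragments, after rounding for Gabre, carry each of Gabre, Gabrq and Slc6a5.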
